A study of Homo sapiens with 20 samples.

Results

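The transcripts examined here encode the erasers and readers of N6-methyladenosine (m6A), and the question was whether these messages are themselves found among the m6A peaks of bladder cancer cells. The group comprises 10 genes: the demethylases FTO and ALKBH5, the YTH domain readers YTHDF1, YTHDF2, YTHDF3, YTHDC1 and YTHDC2, and the insulin-like growth factor 2 mRNA-binding proteins IGF2BP1, IGF2BP2 and IGF2BP3. A peak was counted as a reader or eraser peak when its summit lay in an exon of one of these genes. By this rule 140 of 231465 peaks were chosen, and they fell into 24 of the 43676 merged regions, a region being the union of overlapping peaks from any library. Each of the 10 genes had at least 1 such peak.

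The peaks came from methylated RNA immunoprecipitation sequencing (MeRIP-seq) of T24 and T24R2 cells, both labelled as wild-type human bladder cancer lines and harvested on day 3. T24 is sensitive to cisplatin, a DNA-crosslinking drug. T24R2 is a resistant line obtained from T24 by serial exposure to cisplatin and kept in medium containing the drug, so acquired resistance and the presence of cisplatin cannot be told apart. For each line 5 immunoprecipitated (IP) libraries, made with an anti-m6A antibody (NEB E1610), had a peak list; the input libraries without antibody entered as the background of the peak calls. T24R2 is 1 derived line, and the labels do not say whether the replicates were separate cultures, so p-values measure the spread between these libraries, which may be technical.

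m6A is deposited on adenosines of messenger RNA by a nuclear writer complex, usually within the motif DRACH (the methylated A and a C, preceded by A, G or T and by A or G, and followed by A, C or T). FTO and ALKBH5 are dioxygenases that remove the methyl group. The 3 YTHDF proteins bind m6A in the cytoplasm and are best known for effects on mRNA decay and translation, YTHDC1 acts in the nucleus, YTHDC2 is an RNA helicase known for its role in germ cells, and the IGF2BP proteins are mostly associated with stabilization of bound messages. In typical mRNAs m6A collects in long internal exons and around the stop codon.

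To show sequence near the median summit, a 29-nt window is printed for the most frequently called region of each gene, and for the stop-codon region of YTHDF2, which the comparison of lines turns on. Each window is centred on the DRACH match nearest the median summit, reads 5′ to 3′ on the strand of the gene, and has the motif in capitals. YTHDF3 is described without a sequence. The windows of FTO and ALKBH5 lie in coding exons, on the plus strand at chr16:53826380-53826408 and chr17:18184417-18184445 of hg38.
FTO: tacctgaaagagGAACCttattttggcat
ALKBH5: caagtatcaggaGGACTcggaccccgagc
The windows of the YTH genes lie on the minus strand at chr20:63202950-63202978 (YTHDF1, coding exon 4), on the plus strand at chr1:28743722-28743750 (YTHDF2, coding exon 4) and chr1:28769039-28769067 (YTHDF2, 3′UTR), on the minus strand at chr4:68337309-68337337 (YTHDC1, coding exon 4) and on the plus strand at chr5:113593521-113593549 (YTHDC2, 3′UTR). The YTHDF2 3′UTR window is named after its region and does not contain the stop codon. It lies by the median summit, 93 nt beyond the end of the stop codon. In most T24 libraries the summit lay upstream of this window, at the start of exon 5.
YTHDF1 exon 4: agcagccaccccAGACCcgctgggttgcc
YTHDF2 exon 4: tgtgtggtcccaGGACAaatggaagggtc
YTHDF2 stop codon: tcttaatttcacTGACTtcagagacgatt
YTHDC1: tgatgagcaaggGAACAacactgagaatg
YTHDC2: cactgaatgcacTGACTttcaaaaactga
The windows of the IGF2BP genes lie on the plus strand at chr17:48997705-48997733 (IGF2BP1, 5′UTR) and on the minus strand at chr3:185643848-185643876 (IGF2BP2, 3′UTR) and chr7:23414923-23414951 (IGF2BP3, exon of a retained-intron isoform).
IGF2BP1: cggccttgcccgGGACCgcgtcctgcccc
IGF2BP2: actggtttatgtGGACAagccattatacc
IGF2BP3: atgcagtgatgcTGACTgacggagaggga

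The capitalised adenosine of these windows lay 0 nt (IGF2BP2) to 66 nt (YTHDF1) from the median summit. Single summits spread over 696 nt in exon 4 of YTHDF1, where none lay in the printed window, and over 984 nt in exon 4 of YTHDF2. Motif frequency was counted over all regions in a fixed window that reached 50 nt to the left and to the right of the strongest summit. DRACH occurred on the gene's strand in 23 of the 24 reader and eraser regions (95.8%) and on the opposite strand in 19 (79.2%). Over 27505 exonic regions of genes on a single strand the shares were 88.9% and 73.5%. GGAC, which forms part of many DRACH matches, was found on the gene's strand in 11 regions (45.8%), against 45.7% of all exonic regions, and on the opposite strand in 7 (29.2%), against 26.3%. GGACT, which is always a DRACH match, was found in 4 regions (16.7%, against 16.4%) on the gene's strand and in 1 (4.17%, against 7.81%) on the opposite strand. For GGAC and GGACT on the gene's strand the shares were close to those of exonic regions in general.

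The 10 lists held 17203 to 33120 peaks each, with more in T24R2 than in T24 (20456 ± 2082 in T24 and 25837 ± 4203 in T24R2, mean ± SD, n = 5, exact permutation test, two-sided, p = 0.0159). They hold no read counts, so the depth of the libraries is unknown, and a missing peak can reflect absent RNA as well as absent m6A. The lists carry no strand. The shortest peak differed between libraries, from 49 to 67 bp in replicates 3 and 5 of both lines and from 77 to 166 bp in the other 6 libraries. As a check of the labelled tissue, 6 of 13 urothelial marker genes had an exonic region. KRT7 and FOXA1 had one in all 10 libraries and GATA3 in 5 T24 and 0 T24R2 libraries, while UPK1B, UPK2, UPK3A, KRT20, KRT5, KRT8 and KRT19 had none, and both mesenchymal markers, VIM and CDH2, had one. A marker without a peak may still be expressed.

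Of the 140 peaks, 87 (62.1%) had the summit in coding sequence (CDS), 33 (23.6%) in the 3′UTR, 9 (6.43%) in the 5′UTR and 11 (7.86%) in an exon without coding sequence. Of the 24 regions, 12 lay in CDS, 7 in the 3′UTR, 2 in the 5′UTR and 3 in noncoding exons that belong to other isoforms than the reference (MANE Select) transcript. A region was called in all 10 libraries for 6 of the 10 genes (60%), namely ALKBH5, YTHDF1, YTHDF2, YTHDF3, YTHDC1 and IGF2BP2. Among 10235 protein-coding genes with an exonic region the share was 54.8%. YTHDF2 and YTHDF3 each had 2 regions called in all 10 libraries, and 18.4% of such genes had at least as many. The number of regions per gene ranged from 1 (ALKBH5, YTHDC2 and IGF2BP1) to 4 (YTHDF3), with a median of 3, against a median of 2 over all genes with a region.

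**Figure D1:**
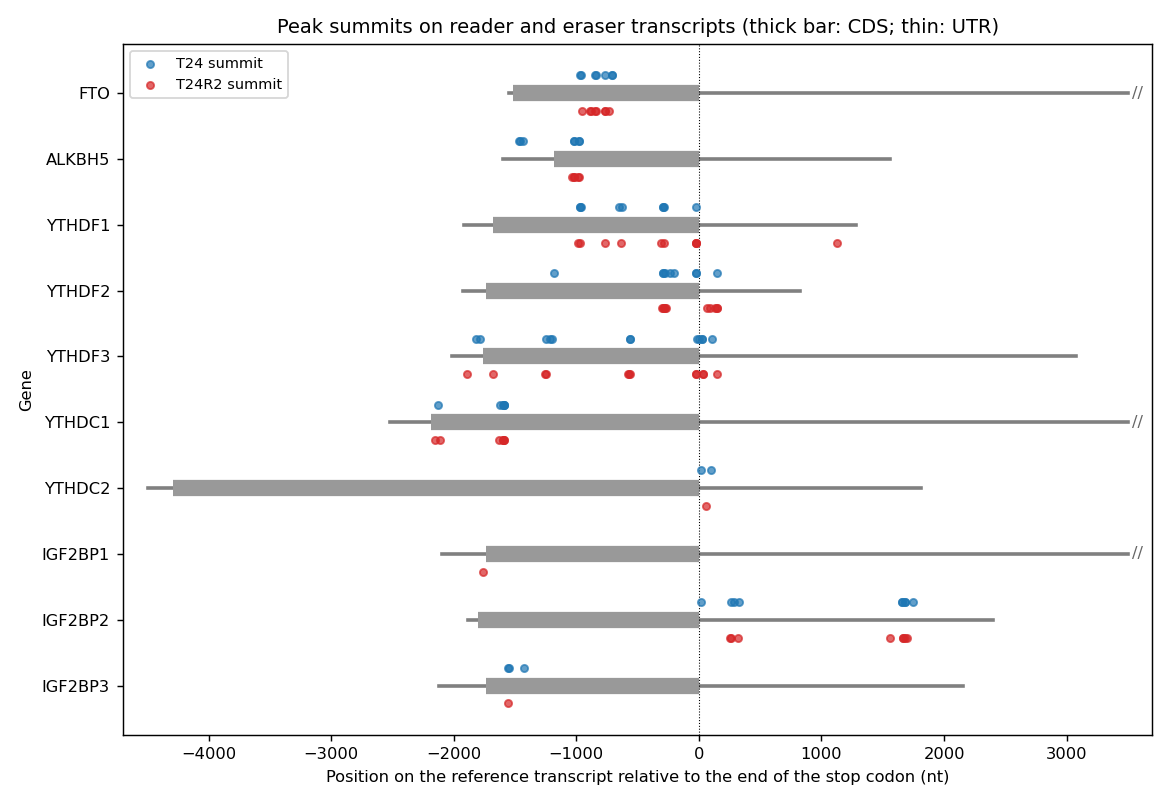
Summits of reader and eraser peaks on the reference transcript of each gene, in nt from the end of the stop codon; blue points above each transcript are T24 libraries and red points below it T24R2 libraries, and 3′UTRs that run past 3500 nt end in a double slash. Summits of both lines lie in exon 4 of YTHDF1, YTHDF2 and YTHDF3 and at the stop codon of YTHDF2 and YTHDF3, at the stop codon of YTHDF1 there is 1 T24 summit in the exon, and those of FTO, ALKBH5 and YTHDC1 lie in the CDS or 5′UTR.

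The strength of a peak is given below as the percentile of its fold enrichment (IP over the local input background, as computed by the peak caller) within the list of its own library, where 100 is the strongest peak of the list and the strongest peak in a region is taken. The percentile ranks a peak against the other peaks of the same library, so it is a relative level, and it still moves with the length of the list. With the same number of peaks (17203) kept in each library, the differences between lines were smaller in exon 4 of YTHDF1 (4.65 in place of 14.2 points) and of YTHDF3 (5.52 in place of 10.1) and at the stop codon of YTHDF2 (11.2 in place of 25.1), and larger and negative in exon 4 of YTHDF2 (−12.4 in place of −3.33). The difference at the stop codon of YTHDF3 hardly changed (27.1 in place of 27.8), and that of the IGF2BP2 3′UTR region was smaller (12.6 in place of 17.3). Under that limit the regions of ALKBH5 and YTHDC1 were no longer called in all libraries. The median percentile over all 9577 regions called in all 10 libraries was 66.7 in T24 and 72.2 in T24R2, which is the level against which the values below can be read.

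FTO, the first m6A demethylase to be described, had 2 exonic regions, both in CDS. Its first region (chr16:53825946-53826490) lay in exon 3, which at 628 nt is longer than most internal exons (1.5% of 163992 internal MANE exons are as long), with the median summit 880 nt before the end of the stop codon. In T24 replicates 1 to 4 its percentiles were 24.2, 37.4, 52.5 and 38.6, and replicate 5 had no peak there. In T24R2 replicates 1 to 5 they were 38.1, 46.9, 44.4, 73.2 and 86.0. The lines overlapped, and fold enrichment ranged from 5.36 to 12.04. The second region (chr16:53844001-53844242), in the 144-nt exon 4, was called in 4 T24 and 5 T24R2 libraries at percentiles from 11.0 to 65.5, again with no peak in T24 replicate 5, although its summit lay inside the exon in 3 libraries of each line. No exonic FTO peak fell in its 3′UTR of 10026 nt.

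ALKBH5, the second m6A demethylase, had a single region (chr17:18183267-18184701) that was called in all 10 libraries. It began upstream of exon 1 of the reference transcript and covered the 5′UTR and the start of the CDS in that exon. Of its 15 peaks 12 had the summit in an ALKBH5 exon, 9 in CDS and 3 in the 5′UTR. A long noncoding gene, ENSG00000266677, runs antisense over it, and peaks without strand cannot be assigned to one or the other. The form of the calls differed between the lines. Each T24R2 library had 1 long peak of 1052 to 1386 bp with the summit in the exon, whereas the T24 libraries had 1 to 3 separate peaks of 85 to 369 bp. When a library had to cover at least 50% of the region, 0 T24 and 5 T24R2 libraries did so (two-sided Fisher's exact p = 0.00794, adjusted p = 0.292), although the long peaks of T24R2 themselves set the extent of the region. Each of these long peaks began upstream of exon 1 of the reference transcript. The strongest peak with its summit in the exon had percentiles of 3.09, 4.15, 2.49, 29.4 and 3.05 in T24 and of 48.9, 30.6, 3.18, 52.0 and 4.601 in T24R2. T24R2 was higher by 19.4 points, with replicates 3 and 5 of T24R2 inside the T24 range (8.44 ± 11.8 and 27.9 ± 23.4, n = 5, two-sided exact permutation p = 0.0635, adjusted p = 0.381). Counting every peak of the region, also those with the summit outside the exon, raised T24 replicates 1 and 2 to 47.7 and 20.5 and reduced the difference to 7.22 points (exact permutation p = 0.484, adjusted p = 0.811). In that count replicates 3 and 5 of both lines (2.49 to 4.60) lay below all other libraries (20.5 to 52.0). Of all regions called in every library 1.01% did so, and the cause was not tested.

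The YTHDF paralogs shared an arrangement of regions. In each of them exon 4 holds most of the CDS, with 1521 nt in YTHDF1, 1584 nt in YTHDF2 and 1599 nt in YTHDF3, where the median internal exon has 123 nt. No more than 0.363% of internal MANE exons are as long as these. The last exon (exon 5) of each begins 24 to 27 nt before the end of the stop codon. Each paralog had a region in exon 4 that was called in all 10 libraries and a second region at the stop codon.

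In exon 4 of YTHDF1 (chr20:63202285-63203847) the T24 percentiles were 25.2, 25.6, 42.0, 19.1 and 65.6 and the T24R2 percentiles 42.8, 42.4, 48.8, 32.5 and 81.7. The T24R2 mean was higher but within the spread (35.5 ± 18.9 and 49.7 ± 18.9, two-sided exact permutation p = 0.254, adjusted p = 0.649), and the difference of 14.2 points became 6.16 without T24R2 replicate 5 and 21.7 without T24 replicate 5. In exon 4 of YTHDF2 (chr1:28742375-28744020) the values were 29.3, 7.78, 34.4, 45.9 and 78.6 in T24 and 29.2, 49.98, 30.8, 31.6 and 37.7 in T24R2. The T24 libraries enclosed all of the T24R2 values (39.2 ± 26.0 and 35.9 ± 8.53, exact permutation p = 0.817, adjusted p = 0.949), and without T24 replicate 5 the difference changed sign, from −3.33 to 6.52. Within replicates 3 and 5 the YTHDF2 difference was −22.25 and within replicates 1, 2 and 4 it was 9.28. In exon 4 of YTHDF3, on chromosome 8, the values were 78.8, 77.04, 49.2, 71.9 and 70.7 in T24 and 70.0, 87.8, 78.6, 88.4 and 73.5 in T24R2 (69.5 ± 11.8 and 79.7 ± 8.30, exact permutation p = 0.159, adjusted p = 0.547), and the difference fell from 10.1 to 5.07 points without T24 replicate 3. YTHDF3 had the highest mean of the 3 exon 4 regions, and it ranked above that of YTHDF1 in 9 of 10 libraries and above that of YTHDF2 in 9 of 10. YTHDF1 and YTHDF2 were not ordered, with YTHDF1 higher in 6 of 10 libraries.

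At the stop codon YTHDF3 again had the highest mean percentile of the 3 paralogs, with summits from 24 nt before to 151 nt after the end of the stop codon. Its percentiles were 52.1, 14.6, 77.9, 57.6 and 79.0 in T24 and 96.4, 64.8, 89.7, 78.5 and 90.8 in T24R2. The lines overlapped, and the difference of 27.8 percentile points did not pass the test (56.2 ± 26.2 and 84.0 ± 12.6, two-sided exact permutation p = 0.0556, adjusted p = 0.363), and it was 17.4 without T24 replicate 2. The YTHDF1 region (chr20:63196595-63196882) was called in 3 T24 libraries, at 3.15, 22.3 and 1.38, and in all 5 T24R2 libraries, at 4.06, 27.1, 27.4, 21.2 and 37.9. In 1 T24 and 3 T24R2 libraries the summit lay in the exon, 23 to 26 nt before the end of the stop codon, and in the others it lay in the preceding intron, 1 to 12 nt before the exon.

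The YTHDF2 stop-codon region (chr1:28768777-28769150) was called in all 10 libraries, with summits in the exon in 3 T24 and 5 T24R2 libraries, from 23 nt before to 149 nt after the end of the stop codon. In T24 the summit lay at the start of exon 5 in 4 of 5 libraries, at bases 3 and 2 of the exon in replicates 1 and 2 and 1 and 8 nt before it in replicates 4 and 5. In T24 replicate 3 it lay at base 174 of the exon, and in the T24R2 libraries at bases 171, 92, 173, 118 and 160. These positions were examined after the other values of this region had been seen, and their difference was not tested. The region was weak in T24, where the percentiles were 3.78, 7.63, 21.4, 5.12 and 6.68. In T24R2 they were 38.3, 32.3, 32.5, 39.8 and 27.3. The lines did not overlap (8.92 ± 7.13 and 34.1 ± 5.04, a gap of 25.1 points by an exact permutation test, two-sided, with p = 0.00794, the smallest that 5 against 5 libraries allow). After Benjamini-Hochberg adjustment over 9577 regions the difference did not pass (adjusted p = 0.176). Every region at the smallest p had this same adjusted p, so no region could pass this test. On the fold enrichment itself the means were 3.74 ± 0.827 in T24 and 5.73 ± 0.516 in T24R2, a log2 difference of 0.63 ± 0.25 (SE, limma, adjusted p = 0.243), where the median over all regions called in every library was 0.11. Within replicates 3 and 5 the difference in percentile was 15.9 and within replicates 1, 2 and 4 it was 31.3. These sets of libraries differed in their shortest peak, and an effect of peak width was not tested. With the same number of peaks kept in each library it was 11.2 (exact permutation p = 0.0238, adjusted p = 0.312).

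Other regions of the YTHDF genes were found in few libraries. YTHDF1 had a 3′UTR peak 1126 nt beyond the stop codon in 1 T24R2 library. YTHDF2 had a region in the exon of a noncoding isoform (chr1:28737415-28737636) in 0 T24 and 2 T24R2 libraries, where the gene ENSG00000289291 also has an exon. YTHDF3 had a 5′UTR region in 2 T24 libraries and 1 T24R2 library and a coding peak in exon 3 in 1 T24R2 library.

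**Figure D2:**
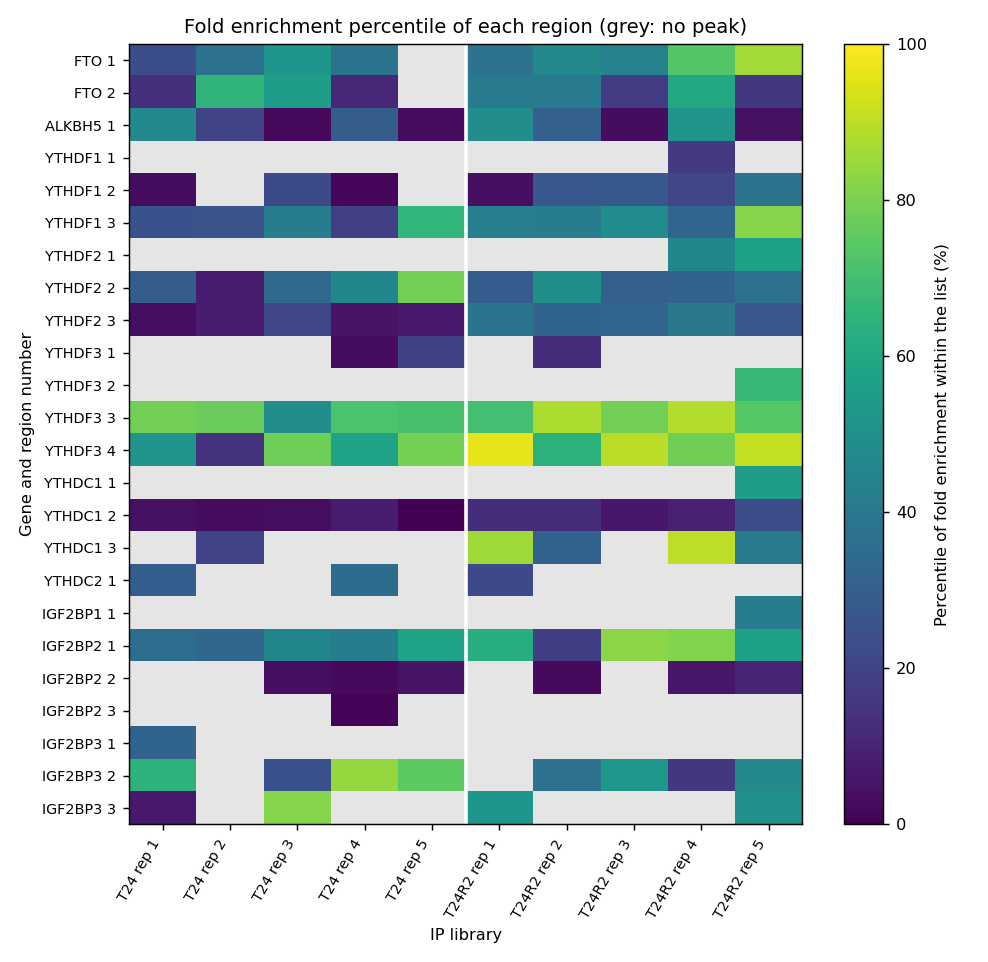
Fold enrichment percentile (colour scale, 0 to 100) of the 24 regions in the 10 IP libraries, with T24 to the left of the white line, T24R2 to the right and grey where a library had no peak; regions are numbered by genomic position within each gene. The exon 4 row of YTHDF3 (region 3) is at 49.2 or above in all 10 libraries, its stop-codon row (region 4) ranges from 14.6 to 96.4, and YTHDC1 region 2 is at 23.7 or below.

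YTHDC1, the nuclear reader, had its constant region (chr4:68337226-68337473) in coding exon 4, which has 424 nt (2.54% of internal MANE exons are as long). Its peaks ranked low in every list. The T24 percentiles were 4.39, 3.03, 3.70, 8.17 and 0.433 and those of T24R2 13.1, 13.3, 6.27, 9.15 and 23.7. T24R2 was higher by 9.15 points, with T24 replicate 4 above T24R2 replicate 3 (3.95 ± 2.80 and 13.1 ± 6.62, two-sided exact permutation p = 0.0159, adjusted p = 0.231). The difference was 12.9 within replicates 3 and 5 and 6.63 within replicates 1, 2 and 4. A second coding region, in exon 2 near the start codon (chr4:68338309-68338482), was called in 1 T24 library at 20.7 and in 4 T24R2 libraries at 85.7, 31.0, 90.2 and 41.3 (Fisher's exact p = 0.206). In T24R2 replicates 2 and 4 the summit lay beside exon 2, in the 5′UTR of another isoform. Another region, in a retained-intron isoform, was called in 1 T24R2 library.

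YTHDC2 had a single weakly supported exonic region in the 3′UTR (chr5:113593413-113593623), with the median summit 57 nt beyond the stop codon. It was called in T24 replicates 1 and 4, at percentiles of 30.003 and 35.4, and in T24R2 replicate 1 at 22.1. By contrast, a region inside an intron of YTHDC2 (chr5:113559443-113560008), 1396 nt from the nearest YTHDC2 exon and outside the rule, was called in all 10 libraries. Its percentiles were 85.3, 64.1, 87.3, 78.7 and 59.8 in T24 and 93.1, 94.8, 92.0, 77.1 and 91.3 in T24R2 (75.0 ± 12.5 and 89.7 ± 7.17, exact permutation p = 0.0635, adjusted p = 0.381).

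The 3 IGF2BP genes differed in where their peaks lay. IGF2BP1 had 1 exonic peak, in the 5′UTR 24 nt before the start codon, in T24R2 replicate 5 at percentile 42.1. IGF2BP2 had 3 regions, all in the 3′UTR. The one called in all 10 libraries (chr3:185643758-185644119) lay 1668 nt beyond the stop codon, with percentiles of 36.1, 32.9, 45.7, 42.4 and 58.1 in T24 and 62.4, 18.4, 82.6, 81.2 and 57.0 in T24R2. T24R2 replicate 2 lay below all T24 libraries and 3 T24R2 libraries above them (43.1 ± 9.80 and 60.3 ± 26.0, two-sided exact permutation p = 0.206, adjusted p = 0.602). Without T24R2 replicate 2 the difference rose from 17.3 to 27.8 points (exact permutation p = 0.0238, adjusted p = 0.334). A second region, 266 nt beyond the stop codon, was called in 3 libraries of each line at a fold enrichment of 2.90 to 3.89, and another, 15 nt beyond it, in 1 T24 library.

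IGF2BP3 had its most frequent region (chr7:23414673-23415298) in a 2322-nt exon that GENCODE assigns to a retained-intron isoform and that is intronic in the reference transcript. It was called in 4 libraries of each line, at 64.6, 25.3, 84.0 and 74.9 in T24 and at 37.4, 53.3, 16.03 and 47.5 in T24R2, with overlapping ranges. A coding region in exon 2 was called in 2 libraries of each line and one in exon 4 in 1 T24 library. Around these, 3 intronic regions of IGF2BP3 were called in 7, 8 and 9 of the 10 libraries.

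Intronic regions of FTO and IGF2BP1, which the rule leaves out, included some with peaks in T24R2 alone. A region in an FTO intron (chr16:53921984-53922390), 820 nt from the nearest FTO exon, was called in 0 T24 and 5 T24R2 libraries, at percentiles of 92.0, 66.9, 97.7, 91.1 and 36.7 and a fold enrichment of 5.53 to 16.9 (two-sided Fisher's exact p = 0.00794, adjusted p = 0.195). In IGF2BP1 an intronic region 36 nt from an exon (chr17:49036830-49037363) was called in 0 T24 and 4 T24R2 libraries at percentiles of 43.5 to 63.9 (Fisher's exact p = 0.0476, adjusted p = 0.517). Neither region overlapped an annotated exon of another gene. Neither passed the adjustment over 43676 regions, of which none had an adjusted p below 0.195. Of all these regions 7.11% reached an unadjusted Fisher's exact p under 0.05 with more T24R2 libraries. Further FTO intronic regions were called in 0 T24 and 2 T24R2 libraries, and in 1 library of each line.

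Over the 24 exonic regions, 9 were called in more T24R2 than T24 libraries, 4 in more T24 than T24R2 libraries and 11 in equal numbers. The same count was not made over all regions, and the T24R2 lists were longer, so these numbers show nothing particular to these genes. No region reached an unadjusted Fisher's exact p under 0.05 (0 of 24), whereas 9.21% of all 43676 regions did, 7.11% with more T24R2 and 2.09% with more T24 libraries. After adjustment none of the 24 and none of all regions passed (0%), where even the smallest possible p (0.00794) had an adjusted p of 0.195. Of the 8 regions called in all 10 libraries, 7 had a higher mean percentile in T24R2, with a median difference of 12.2 points. Of all 9577 such regions 64.4% were higher in T24R2, with a median difference of 4.84. An unadjusted exact permutation p under 0.05 was found for 2 of the 8, YTHDF2 at the stop codon and YTHDC1 in exon 4, both higher in T24R2, against 13.9% of all such regions (10.9% higher and 3.04% lower in T24R2). In 1 of the 8, at the YTHDF2 stop codon, the T24R2 values lay above those of T24 without overlap, as in 3.63% of all such regions (0.867% had T24R2 below T24 without overlap). None of the 8 and 0% of all regions passed the adjusted permutation test, where even the smallest possible p had an adjusted p of 0.176. By limma on log2 fold enrichment, which called 0.585% of all such regions higher and 0.178% lower in T24R2 at an adjusted p under 0.05, none of the 8 was called either, and those with an unadjusted p under 0.05 were the stop-codon regions of YTHDF2 (adjusted p = 0.243) and YTHDF3 (adjusted p = 0.283). YTHDC1 exon 4 was not past 0.05 before adjustment in any of the 3 limma fits (adjusted p = 0.462 to 0.537). With a replicate block limma called 0.407% of all regions higher and 0.115% lower, and on percentiles 0.731% and 0.167%, again with none of the 8. The lowest adjusted p of the 8 in these fits was 0.0855, at the YTHDF2 stop codon by limma on percentiles.

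**Figure D3:**
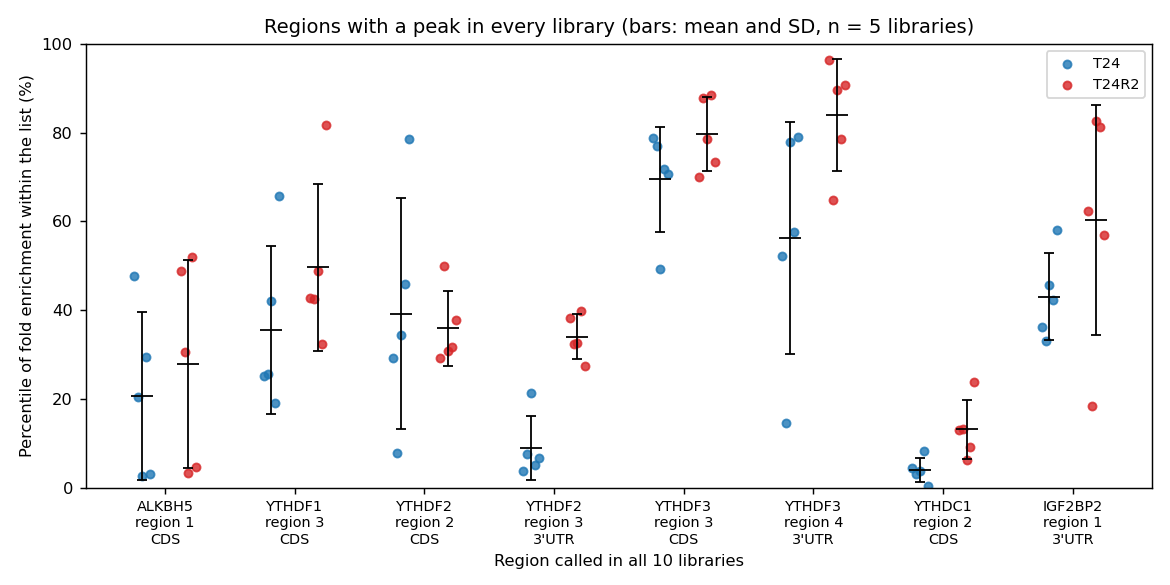
Percentile of fold enrichment within the list for the 8 regions called in all 10 libraries, 1 point per library (blue, T24, and red, T24R2) for the strongest peak wherever its summit lies, with the mean and SD (n = 5) in black. The points of the 2 lines separate fully at YTHDF2 region 3, where T24 lies at 3.78 to 21.4 and T24R2 at 27.3 to 39.8, and overlap at the other 7 regions.

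The number of reader and eraser peaks per library did not pass the test between the lines, although the T24R2 lists were longer. The T24 libraries had 13, 12, 14, 16 and 13 such peaks and the T24R2 libraries 12, 14, 12, 15 and 19. The lines overlapped (13.6 ± 1.52 and 14.4 ± 2.88, 0.8 more in T24R2, exact permutation p = 0.730), and without T24R2 replicate 5, the longest list, the difference was −0.35. It depended on the threshold of the peak calls: among peaks with a −log10 q of at least 10 it was 3.6 and among peaks with a fold enrichment of at least 4 it was 4.2 (exact permutation p = 0.0238 for both). Per 10000 peaks of the list there were 6.65 ± 0.318 in T24 and 5.56 ± 0.519 in T24R2, where the lines did not overlap (6.29 to 6.99 and 5.01 to 6.18, two-sided exact permutation p = 0.00794). This rate has the length of the list in its denominator, so similar peak numbers give a lower rate in the longer T24R2 lists. It was not compared with the rate of other genes, so it does not show a loss particular to these genes. Each library had peaks in 7 to 9 of the 10 genes. The share of these peaks in the 3′UTR was 21.6 ± 7.75% in T24 and 25.3 ± 2.77% in T24R2 (difference 3.65 percentage points, exact permutation p = 0.460), and the share in CDS was 65.4 ± 11.8% and 60.6 ± 10.2%.

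**Figure D4:**
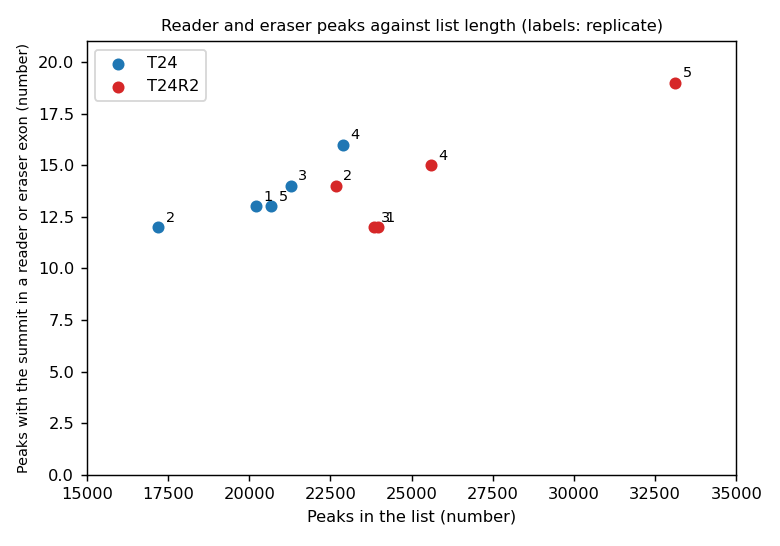
Number of peaks with the summit in a reader or eraser exon (vertical axis) against the number of peaks in the list (horizontal axis) for each IP library, labelled by replicate (blue, T24; red, T24R2). T24R2 replicate 5, with 33120 peaks, had the most reader and eraser peaks (19), and the other 9 libraries had 12 to 16.

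For comparison, all 9 genes of the m6A writer list (METTL3, METTL14, WTAP, VIRMA, RBM15, RBM15B, ZC3H13, CBLL1 and METTL16) had an exonic region, 8 of them one called in all 10 libraries. Of their 32 regions, 2 reached p under 0.05 by Fisher's exact test before adjustment, both with more T24R2 libraries: METTL14, a core subunit of the methyltransferase (0 T24 and 4 T24R2 libraries), and ZC3H13, a zinc finger subunit (1 and 5). Of all regions 9.21% did so in either direction and 7.11% with more T24R2 libraries. Of their 17 regions called in every library none passed the adjusted test, and 2 had an unadjusted exact permutation p under 0.05, both in ZC3H13 and both lower in T24R2 (differences of −26.4 and −34.6 points). Of all regions called in every library 13.9% had such a p in either direction and 3.04% with T24R2 lower. The median difference over the 17 was 0.489 points, against 4.84 over all regions called in every library. All 7 other proteins reported to bind m6A or structures it alters (HNRNPA2B1, HNRNPC, RBMX, FMR1, PRRC2A, EIF3A and ELAVL1) had a region, 3 of them one in all 10 libraries. Of their 7 regions called in every library none passed the adjusted test. The one with an unadjusted p under 0.05 was in HNRNPA2B1, a nuclear RNA-binding protein, at 59.0 ± 18.7 in T24 and 87.4 ± 8.45 in T24R2 (two-sided exact permutation p = 0.0238, adjusted p = 0.263). Over all regions called in every library the share with such a p was 13.9%. Over all its regions HNRNPA2B1 had an exonic summit in only 3 libraries of each line. The percentiles of this region therefore include peaks with the summit outside its exons.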

How the data were processed

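Per the labels and the study's methods, the authors aligned reads to hg38 with STAR 2.7.0 (GENCODE 39), kept uniquely mapped reads without duplicates with SAMtools 1.10, and called peaks of each IP library over input with MACS2 3.0.0a6, with no model and with reads extended to a fixed size. The deposited lists give, for each peak, a fold enrichment (a ratio), a −log10 p-value and −log10 q-value (lowest −log10 q, 2) and a score derived from the q-value. They hold no counts, so the count tests of the study were not run. Although a fixed extension size is given, the shortest peak differed between the lists, from 49 to 166 bp, and the reason was not tested. The deposited merged regions were used as they were.

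Summits were placed on GENCODE 44 exons (CDS first, then 3′UTR, 5′UTR and noncoding exon), and a region was present in a library that overlapped it by at least 1 bp. Percentiles and presence were compared over all regions with Python 3.11.15 and SciPy 1.17.1 (exact permutation over 252 assignments, Fisher's exact test, Benjamini-Hochberg) and with limma 3.58.1. The permutation test and limma were tested on simulated data, and Fisher's exact test and the adjustment on fixed values. The 10 members, the other lists and the regions named were set by rule with earlier results of these data known. Same-numbered replicates were not paired: the correlation of their deviations from the line means was −0.0419 to 0.121, and 1 of 5 pairs exceeded 0.1. Alternatives were stricter thresholds, equal list lengths, the reference transcript alone, a wider overlap, other percentiles, a replicate block, omission of each library and, added after the data were seen, the peak-width sets (replicates 3 and 5 against 1, 2 and 4) and exonic summits alone.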

Additional observations from a re-analysis of the deposited data

Results flagged for a closer look

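Of 28 groups of 5 libraries examined, 4 held a library whose distance from the nearest other exceeded 0.71 of the range (Dixon's 95% limit for 5 samples), where chance gives about 5% for continuous, normally distributed values. Several measures use the same peaks, so the groups are not independent. T24R2 replicate 5 had peaks in 9 of the 10 reader and eraser genes and the other T24R2 libraries in 8. As those others were equal, any departure from them would have exceeded the limit. T24 replicate 2, the shortest list, had 8.33% of its reader and eraser peaks in the 3′UTR, and the other T24 libraries 23.1 to 28.6%. T24 replicate 3 was set apart in 2 regions and in opposite directions. At the YTHDF2 stop codon (region 3) its percentile was 21.4, above the 3.78 to 7.63 of the other T24 libraries and below all T24R2 values. In YTHDF3 exon 4 (region 3) it was 49.2, below the 70.7 to 78.8 of the others. The causes were not tested.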

How the results depend on the processing

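Of 626 recomputed values, 602 kept their sign and their side of the threshold (adjusted p for single regions) or, for counts, moved by no more than 1.5 times. Of these, 510 belong to single regions, judged by an adjusted p that no region passed in the main run. A difference of 0 had no sign to turn, so the tally is a weak measure of stability. The YTHDF2 stop-codon region counts as unchanged although its percentile difference fell from 25.1 to 11.2 with equal list lengths. The difference in reader and eraser peaks per library (0.8) became 3.6 at a −log10 q of at least 10, 4.2 at a fold enrichment of at least 4 and −0.2 on reference transcripts alone, and −0.35 to 1.4 with each library left out. The difference in 3′UTR share (3.65 points) became −0.764 at a fold enrichment of at least 4 and 0.327 to 5.39 with each library left out. The number of regions with an unadjusted Fisher's exact p under 0.05 (0) became 2 at a −log10 q of at least 10, where the YTHDF2 stop-codon region was kept in 0 T24 and 5 T24R2 libraries (exact p = 0.00794, adjusted p = 0.236), 1 at a fold of at least 4, 1 where a library's peaks had to cover 50% of the region (ALKBH5, 0 T24 and 5 T24R2 libraries), and 0 to 1 with each library left out (1 without T24 replicate 2 or T24R2 replicate 3). The number of shared regions with an unadjusted exact permutation p under 0.05 (2) became 1 with equal list lengths, 1 at a −log10 q of at least 5, 1 at 10, 0 at a fold of at least 4, 4 by percentiles of −log10 q, 2 to 4 with each library left out (4 without T24 replicate 5 or T24R2 replicate 2), 1 with summits in the exons of the genes alone (YTHDC1, since YTHDF2 at the stop codon then had no value in 2 T24 libraries) and 3 within the peak-width sets, where the smallest p is 0.0167 and YTHDF3 at the stop codon joined. No alternative gave an adjusted call. In the main run no adjusted p could lie below 0.176 by the permutation test or 0.195 by Fisher's exact test, so those tests could not give one.

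The sign turned for YTHDF3 region 1 (presence difference −0.2 of libraries; 0.2 with equal list lengths, at a −log10 q of at least 5 and at 50% cover) and for YTHDF2 exon 4 (−3.33; 4.51 by percentiles of −log10 q, 1.79 as the mean over peaks, and −11.2 to 6.52 with each library left out, the highest without T24 replicate 5). With a replicate block, taken from the replicate numbers that did not pair the libraries, the peak difference stayed 0.8 (sign-flip exact p = 0.812) and the 3′UTR difference 3.65 (sign-flip exact p = 0.688; the smallest possible is 0.0625), and limma called 0 of the 8 regions; 2 of 10 libraries correlated best with their own number. The causes of these changes were not tested. Peak lists without counts limit what can be said: RNA level and m6A cannot be separated, and no interval that needs depth can be given.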
